A study of Chlamydomonas reinhardtii with 8 samples.

Results

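*LHCBM9*, *LHCA1* and *PSAO* are nuclear genes of the light-harvesting apparatus of *Chlamydomonas reinhardtii*, a unicellular green alga. They were followed through all probes that carry the JGI identifiers 184479, 184471 and 193847 on a whole genome microarray, which gave 9 probes of 3 transcript models out of 14557 models on the array. Each of these 3 models has 3 probes. The study states that it added probes based on an earlier array design, as a further probe per transcript. It left their data out of its analysis. The reasons it gives are lower log2 ratios in differentially expressed genes and a high potential of many of these probes to cross-hybridize. Whether any of the 9 probes is of that origin was not tested. On the v5.5 assembly of the NCBI annotation the 3 models correspond to the loci CHLRE_06g284200v5, CHLRE_06g283050v5 and CHLRE_07g334550v5. *LHCBM9* and *LHCA1* lie there on the same chromosome with 24 annotated genes between them, and 5 genes separate *LHCBM9* from *LHCBM4*, another gene of its family.

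Light-harvesting proteins bind chlorophyll and pass absorbed energy to the 2 photosystems of the thylakoid membrane. *LHCBM* genes encode the major trimeric antenna of photosystem II, known as LHCII, whose members are very similar to each other. *LHCBM9* is the member best known for being scarce in nutrient-replete cells and abundant under nutrient stress, sulfur starvation and hydrogen production among them. *LHCA1* encodes a protein of the antenna belt of photosystem I, and *PSAO* encodes subunit O of photosystem I, a small subunit at the side where LHCII can dock. Sulfur starvation is known to slow photosynthesis in this alga and to induce enzymes and transporters that scavenge sulfate.

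RNA was measured on 8 arrays with 2 colours. On 6 of them, numbered 1 to 6, the labels give RNA of the wild type cc3491 at 0 h (T0) in Cy3 and RNA of the same strain under sulfur stress in Cy5, from cultures in TAP, an acetate medium, with or without sulfur. The titles of these 6 arrays give 24 h, while the time field of Cy5 gives 24, 48, 72, 96, 24 and 48 h for arrays 1 to 6. The other 2 arrays, label1 and label2, carry RNA of the wild type cc125, for which the labels give 24 h of sulfur stress in both channels. Each of the 6 ratios sets starved RNA against T0 RNA within an array, and no array has the dyes swapped. The series design names 3 biological replicates, and the study names 3 technical ones beside them without saying which arrays are which. The p-values below may thus treat technical repeats as independent and be too small.

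Some arrays stood apart from the others. On arrays 1 and 2 only 2180 and 2450 of 43705 probes (4.99% and 5.61%) were well above background in at least 1 channel, against 16818 to 24446 on arrays 3 to 6, and their log2 ratios had a correlation with those of arrays 3 to 6 of 0.03 at most across probes. Arrays 3 to 6 correlated with each other at 0.72 to 0.93. The main comparison therefore used arrays 3 to 6 and values over all 6 arrays are given beside it. Arrays 3 and 4 lie on the first slide, together with 1 and 2, and arrays 5 and 6 on the second, so that slide and labelled time (72 and 96 h against 24 and 48 h) cannot be told apart. The array label2 went against its label. On it 10 of 10 probes of the known sulfur starvation genes *ARS1*, *ARS2*, *ECP76*, *ECP88* and *SLT1* were at least 2-fold brighter in Cy5 (median log2 ratio 4.08), and on label1 none was. On arrays 3 to 6 only the *SLT1* probes among these 10 were bright enough to be tested, with mean log2 ratios of 1.95 and 2.29. Among the dim ones, *ECP76* probe 1 had 4.45 and 3.66 on arrays 3 and 4 but 0.13 and 0.46 on arrays 5 and 6. The rest had means between -0.30 and 0.58. The starved label of arrays 3 to 6 was thus checked by *SLT1* alone among these genes. The log2 ratios of all probes had an SD of 0.33 on label1 and 0.98 on label2. The difference between label1 and label2 is therefore given as measured and not as a property of cc125.

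In the following, a probe was well above background where the scanner software marked it so. It was saturated where its spot reached the ceiling of the scanner, at 65528 to 65535 units. A saturated channel gives only a lower limit of its signal, and the ratio moves with that limit. The log2 ratio is that of Cy5 over Cy3, so that a value above 0 on arrays 1 to 6 means more signal from starved than from T0 RNA.

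The uncorrected signals set the frame for what each probe can show. *LHCBM9* was close to the local background on all 6 cc3491 arrays. Its probe 1 had median spot signals of 27.0 to 63.5 in Cy3 and 45.5 to 100 in Cy5 on these arrays, where the local background was 17.0 to 29.0 in Cy3 and 40 to 47.0 in Cy5. Probes 1 and 3 of *LHCA1* and probes 1 and 2 of *PSAO* lay at the other end. In Cy5 they were saturated on arrays 3 and 4, and their lowest Cy3 signal on arrays 3 to 6 was 28910.5. Probe 2 of *LHCA1* and probe 3 of *PSAO* lay between, with 152.0 to 178.0 and 1634.5 to 2233.5 in Cy3 on arrays 3 to 6, and neither was saturated on any array. Probes of the same transcript thus differed widely in signal, and their levels are not compared with each other.

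**Figure D1:**
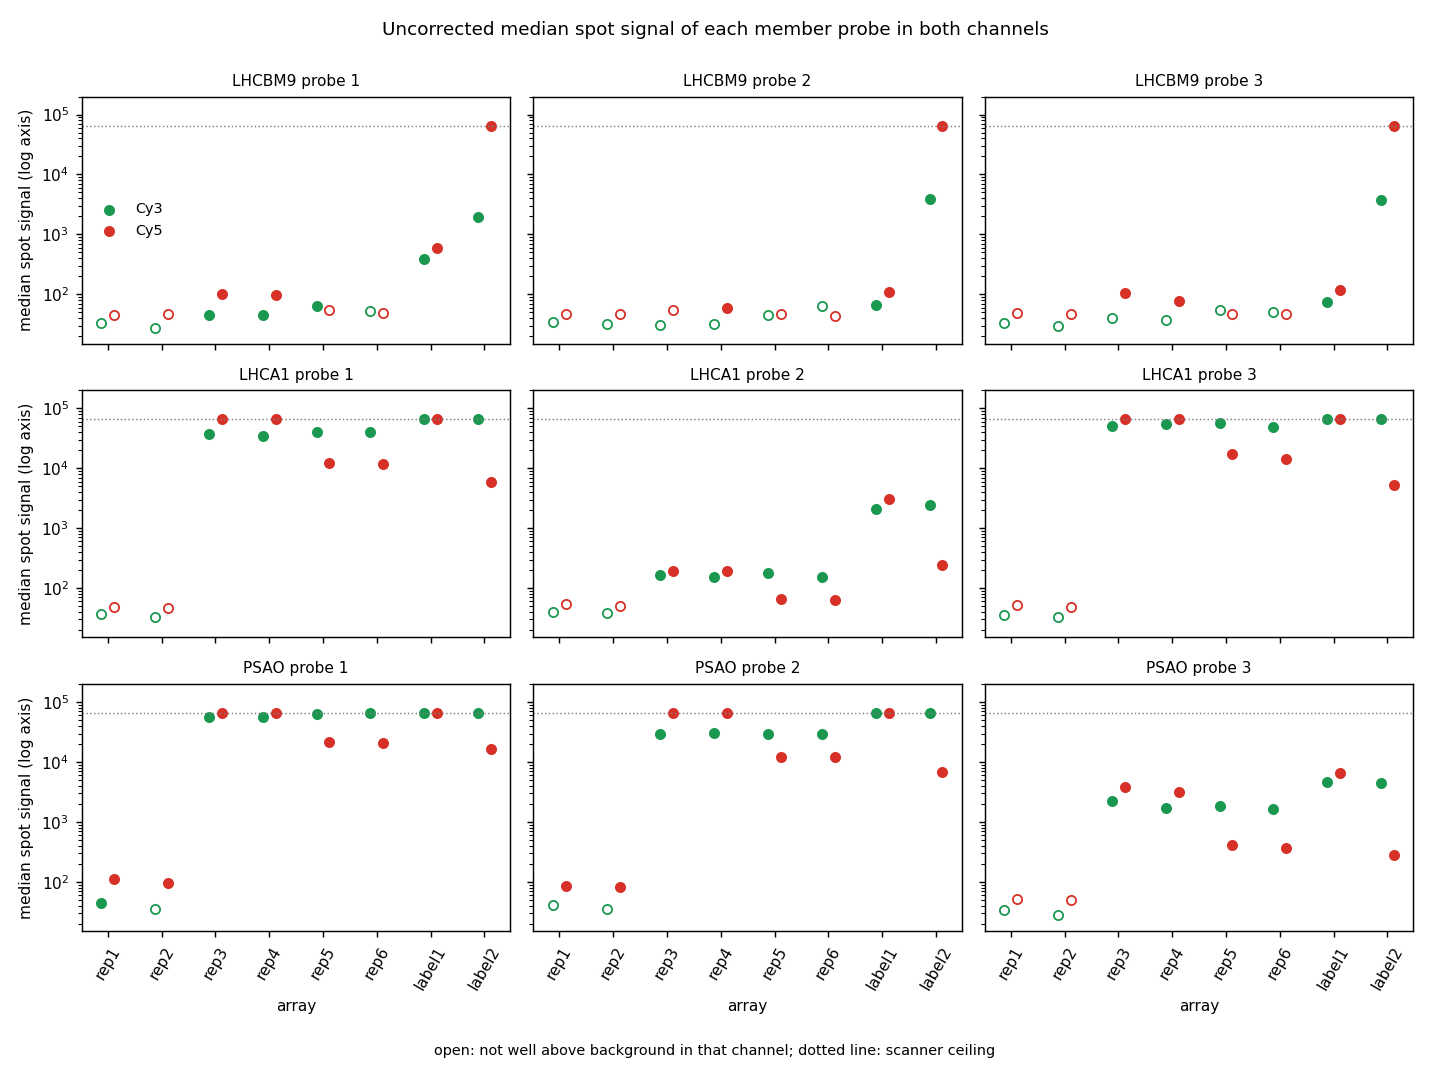
Uncorrected median spot signal (log axis, scanner units) of each of the 9 probes in Cy3 (green) and Cy5 (red) on the 8 arrays, with open points where the channel was not well above background and a dotted line at the scanner ceiling. On label2 the Cy5 signal of all 3 LHCBM9 probes sits at the ceiling, while that of the LHCA1 and PSAO probes is below their Cy3 signal.

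*LHCBM9* in starved cc3491 had ratios above 0 on its best measured probe, but no call. Probe 1 of model 184479 had log2 ratios of 1.63 and 1.23 on arrays 3 and 4 and of 1.38 and 2.71 on arrays 5 and 6, all above 0. Its Cy5 signal, from starved RNA, was well above background on arrays 3 and 4 only. Arrays 1 and 2, where this probe was not well above background in either channel, gave 0.11 and 0.10. The mean of arrays 3 to 6 was 1.74 ± 0.67 (SD, n = 4), which is 3.34-fold, with an SE of 0.27 and a 95% confidence interval of 1.02 to 2.46. In the limma test over all probes the adjusted p after Holm was 1 (unadjusted p 0.00189 by limma's moderated test). After Benjamini-Hochberg it was 0.00809, so that the call depends on the adjustment. Over all 6 arrays the mean was 1.19 ± 0.99 (SD, n = 6), with an adjusted p of 1 by limma and Holm.

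The size of this value depended on the treatment of background. Cy3 was well above background on 3 of the 4 arrays and Cy5 on 2 of them. On array 5 only Cy3, the T0 channel, was. Its median spot signal there was 63.5 over a local background of 27, and that of Cy5 was 55 over 43. On array 6, which gave the highest ratio, neither channel was well above background. The ratios of arrays 5 and 6 thus rest on a starved signal near background. With no background subtraction before loess the mean log2 ratio was 0.35, and with normexp, a background model that keeps dim signals positive, it was 0.22. These are about as small as the differences of the *LHCA1* and *PSAO* probes below.

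Probes 2 and 3 of *LHCBM9* were too dim to be tested. Probe 2 had log2 ratios of 1.60 and 2.16 on arrays 3 and 4 and of 0.37 and 0.35 on arrays 5 and 6. Probe 3 had 2.44 and 2.04 on arrays 3 and 4 but -0.49 and 0.15 on arrays 5 and 6. Both probes thus had higher values on arrays 3 and 4 than on arrays 5 and 6, where neither channel was well above background. Probe 1 was highest on array 6. Cy3 was not well above background on any of the 4 arrays for either probe, and Cy5 was on 1 array for probe 2 and on 2 arrays for probe 3. With the detection limit in place of the T0 signal no lower limit above 1-fold could be given for either, and their means of 1.12 ± 0.90 and 1.03 ± 1.43 (SD, n = 4), or 0.78 ± 0.88 and 0.72 ± 1.21 over all arrays (SD, n = 6), are descriptions.

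*LHCA1* had measured ratios within 2-fold between starved and T0 RNA of cc3491 on all 3 probes, with means of different sign. Cy5 of probes 1 and 3 was saturated on arrays 3 and 4, so that their ratios there are lower limits. Probe 1 of model 184471 had log2 ratios of 0.17, 0.21, 0.25 and 0.25 on arrays 3 to 6. Its mean was 0.22 ± 0.04 (SD, n = 4), or 1.16-fold, with a 95% interval of 0.08 to 0.36. Its 4 values lay closer together than those of any other *LHCA1* probe, but Cy5 was saturated on arrays 3 and 4, and with saturated values left out the mean of the remaining arrays was 0.25. The adjusted p was 1 with Holm and 0.028 with Benjamini-Hochberg in limma, and the measured change was under 2-fold.

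Probe 2 of *LHCA1*, the unsaturated one, pointed the other way. Its log2 ratios were -0.38, -0.43, -0.56 and -0.06 on arrays 3 to 6, below 0 on all 4. The mean was -0.36 ± 0.21 (SD, n = 4) with a 95% interval of -0.62 to -0.09, and the adjusted p was 1 with Holm and 0.0421 with Benjamini-Hochberg in limma. Probe 1 and probe 2 therefore had different signs on every one of the 4 arrays, and neither passed the call. Probe 3 had values of -0.19 and -0.35 on arrays 3 and 4, where its Cy5 signal was saturated, and of 0.35 and 0.31 on arrays 5 and 6. Its mean was 0.03 ± 0.35 (SD, n = 4), and the sign of this mean changed in 3 of the alternatives tried. With saturated values left out it was 0.33, from arrays 5 and 6. Over all 6 arrays, of which *LHCA1* was not well above background on 1 and 2, the means of probes 1 to 3 were 0.10 ± 0.22, -0.19 ± 0.35 and 0.01 ± 0.28 (SD, n = 6).

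A second transcript model of the array, 206001, bears the name *LHCA1* as well. Its probes 1 and 2 had mean log2 ratios of 0.83 ± 0.08 and 0.90 ± 0.11 (SD, n = 4) and were not saturated. These values were above the measured means of every probe of model 184471, of which probes 1 and 3 were saturated on arrays 3 and 4. They also stayed under 2-fold, and probe 3 of model 206001 was too dim to be tested. Whether the 2 models describe the same gene was not tested.

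*PSAO* had ratios above 0 on its probes 2 and 3 in starved cc3491, which were under 2-fold as measured and were not called. Probe 2 of model 193847 had log2 ratios of 0.52, 0.42, 0.55 and 0.66 on arrays 3 to 6, above 0 on all 4. The mean was 0.54 ± 0.10 (SD, n = 4), or 1.45-fold, with a 95% interval of 0.37 to 0.71 and an adjusted p of 1 with Holm and 0.00382 with Benjamini-Hochberg in limma. Cy5 of this probe was saturated on arrays 3 and 4, and the mean was 0.61 with saturated values left out. Probe 3, never saturated, had 0.19, 0.14, 0.15 and 0.16, with a mean of 0.16 ± 0.02 (SD, n = 4), a 95% interval of 0.02 to 0.29 and an adjusted p of 1 with Holm and 0.0625 with Benjamini-Hochberg. Its spread was the smallest of the 9 probes, although its mean turned to -0.03 with normexp and to -0.07 without background subtraction.

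Probe 1 of *PSAO* split by slide. It had -0.14 and -0.26 on arrays 3 and 4, where Cy5 was saturated, and 0.65 and 0.66 on arrays 5 and 6, with Cy3 saturated on array 6. The mean of 0.23 ± 0.49 (SD, n = 4) therefore lies between both slides and near none of the arrays. With saturated values left out, array 5 alone remained, with 0.65. On arrays 1 and 2 the *PSAO* probes 1 and 2 were among the few well above background in Cy5. Their log2 ratios there were 2.59 and 4.23 for probe 1 and 2.37 and 3.75 for probe 2, from Cy5 signals of 81.5 to 114.0 and Cy3 signals of 35.0 to 45. Cy3 was well above background only for probe 1 on array 1, so that the other 3 ratios rest on a T0 signal at background and their size is not read. The 4 values raise the means over all 6 arrays to 1.29 ± 1.76 and 1.38 ± 1.38 (SD, n = 6), with an adjusted p of 1 for both by limma and Holm, while probe 3 had 0.09 and 0.02 on these 2 arrays, was not above background and had a mean of 0.12 ± 0.06 (SD, n = 6).

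**Figure D2:**
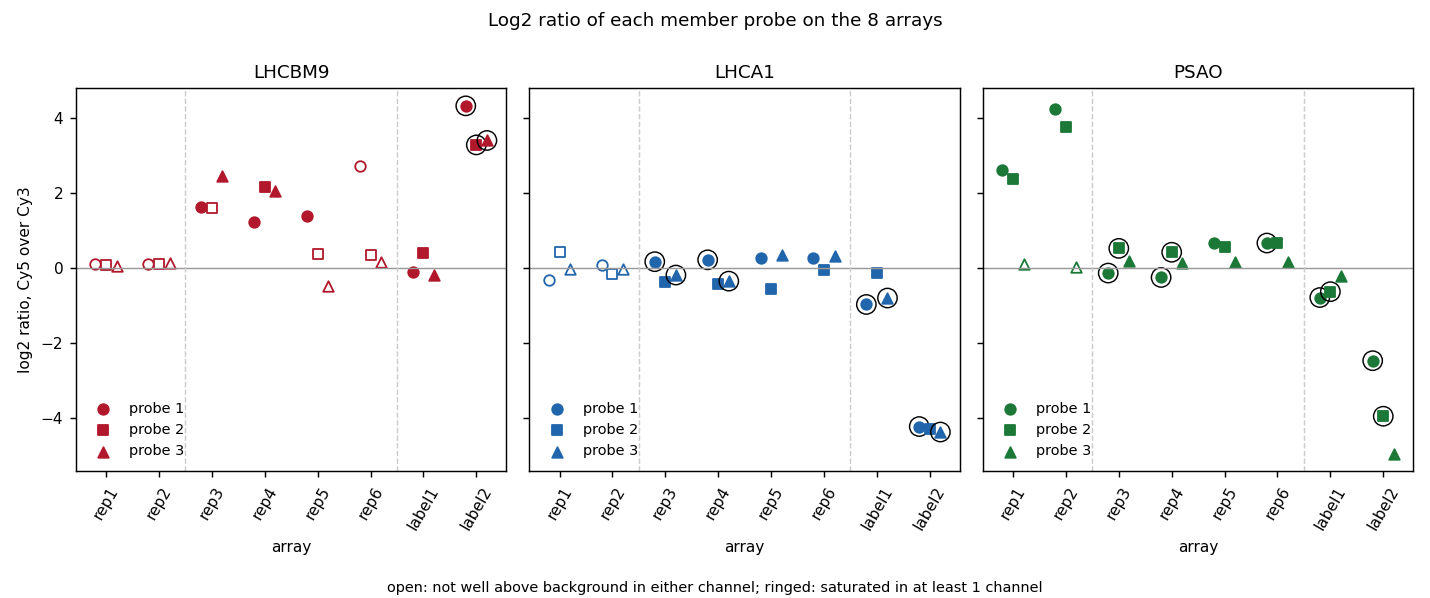
Log2 ratio of Cy5 over Cy3 of the 3 probes of each gene on the 8 arrays (after loess on rep1 to rep6, the cc3491 arrays 1 to 6, and without loess on label1 and label2). Open symbols were not well above background in either channel and ringed ones were saturated in at least 1 channel; LHCA1 and PSAO lie near 0 on rep3 to rep6, and on label2 LHCBM9 lies above 3 while LHCA1 and PSAO lie below -2.

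Against the background of all probes, the 3 genes gave no call in starved cc3491. Of their 9 probes 7 could be tested, and 0 of these 7 passed Holm at 0.05 with a change of at least 2-fold, while 212 of 18236 probes tested did (1.16%). With Benjamini-Hochberg 1 of the 7, *LHCBM9* probe 1, passed with the same minimum change, against 1639 of all (8.99%), and 858 of all passed with a higher signal (4.70%). An unadjusted p under 0.05 was reached by 5 of the 7 probes and by 9890 of all (54.2%), so that this share says little of the 3 genes. With slide as a random block it was 3 of the 7, and *LHCA1* probe 2 and *PSAO* probe 3, whose intervals above leave out 0, had unadjusted p-values of 0.0619 and 0.0623 by limma's moderated test. Over all 6 arrays Holm left 6 probes (0.0329%), none of them from the 3 genes.

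The difference between the second and the first slide was tested as well. It was 0.85 (95% interval 0.61 to 1.10) for *PSAO* probe 1 and 0.60 (0.32 to 0.88) for *LHCA1* probe 3 on the log2 scale, with unadjusted p-values of 0.00123 and 0.0058 by limma's moderated test. After adjustment they were 1 by Holm for both and 0.0863 and 0.106 by Benjamini-Hochberg. Both probes had Cy5 saturated on the first slide only, and so had *LHCA1* probe 1 and *PSAO* probe 2, whose differences were 0.06 (-0.15 to 0.27) and 0.14 (-0.14 to 0.41). The last 2 depended on the processing, with 0.245 and 0.313 without loess and 0.332 and 0.540 with normexp. For *LHCA1* probe 2 and *PSAO* probe 3, with no saturation, the difference was 0.10 (-0.53 to 0.72) and -0.01 (-0.23 to 0.20). These 2 had 0.086 and 0.00037 without loess and 0.167 and -0.342 with normexp. For *LHCBM9* probe 1 it was 0.62 (-1.03 to 2.27). In limma 0 of 18225 probes passed (0%) with Holm and 0 with Benjamini-Hochberg, 4214 had an unadjusted p under 0.05, and with normexp 7 passed with Holm. The part of saturation in these differences was not tested.

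On label1 the 3 genes had similar signals in both channels. *LHCBM9* probes 1 to 3 had log2 ratios of -0.11, 0.39 and -0.19. *LHCA1* probe 2 and *PSAO* probe 3 had -0.14 and -0.21. The probes *LHCA1* 1 and 3 and *PSAO* 1 and 2 were saturated in both channels of label1, and no ratio is read from them. None of the 5 probes with a readable ratio passed 2-fold on this array, where 0.300% of all probes were at least 2-fold higher and 0.182% lower in Cy5.

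On label2 the 3 genes stood far from 0, in opposite directions. *LHCBM9* was brighter in Cy5, with log2 ratios of 4.32, 3.27 and 3.39 for its probes 1 to 3. Cy5 reached the scanner ceiling for all 3 probes, so that Cy5 was at least 19.9-, 9.68- and 10.5-fold above Cy3. *LHCA1* was dimmer in Cy5, with log2 ratios of -4.23, -4.29 and -4.37. Its probe 2, unsaturated, was 19.6-fold dimmer in Cy5, and probes 1 and 3, with Cy3 at the ceiling, at least 18.7- and 20.7-fold. *PSAO* was dimmer in Cy5 too, with -2.47, -3.95 and -4.96. Its probe 3, unsaturated, was 31.0-fold dimmer in Cy5, and probes 1 and 2, with Cy3 at the ceiling, at least 5.55- and 15.5-fold.

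All 3 probes of a gene thus shared a direction on label2, also the dim ones. Of the 43050 probes measured on this array 9.00% were at least 2-fold higher and 11.9% lower in Cy5. Of the unsaturated member probes, *PSAO* probe 3 ranked 16 from the bottom among them and *LHCA1* probe 2 ranked 62. The other 7 probes give limits and are not ranked. There is 1 array of this kind and no test. Normexp lowered the unsaturated values to -2.81 for *LHCA1* probe 2 and to -3.60 for *PSAO* probe 3, and all 9 directions stayed as they were under loess, normexp and the deposited value table.

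The 2 label arrays differed most for *LHCBM9*. The Cy3 channel is labelled as the same RNA on both, and its uncorrected signal was 391.5, 66.0 and 75.5 for probes 1 to 3 on label1 but 1912, 3944.5 and 3724 on label2. After background subtraction and scaling between arrays the Cy3 signal of label2 was 10.8-, 342- and 172-fold above that of label1. The scaling used the mean of both channels, so that the Cy5 ceiling on label2 enters these folds and they are approximate. The Cy5 signals were 590.5, 111.0 and 120 on label1 and at the ceiling on label2. For *LHCA1* probe 2 the Cy3 signal was 2125.5 on label1 and 2455 on label2, and the Cy5 signal 3061 and 246.0. For *PSAO* probe 3 the Cy3 signal was 4681 and 4553.5 and the Cy5 signal 6528 and 285.5. *LHCBM9* thus differed between both arrays in both channels, and *LHCA1* and *PSAO* mainly in Cy5.

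**Figure D3:**
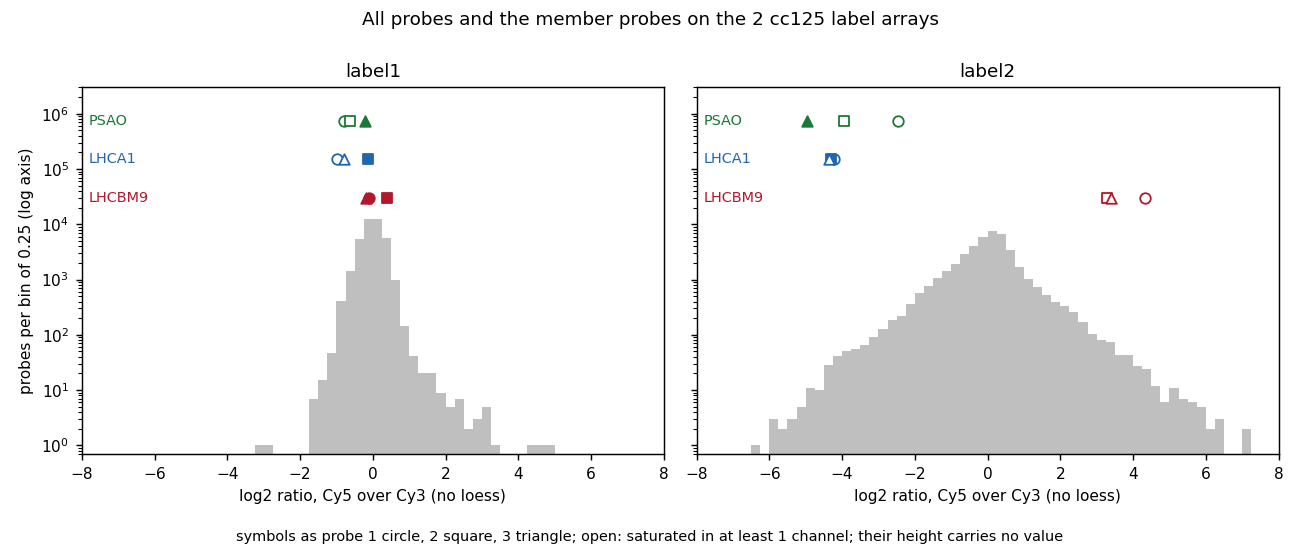
Distribution of the log2 ratio of Cy5 over Cy3 without loess on label1 (38991 probes) and label2 (43050 probes), as probes per bin on a log axis, with the 9 member probes above it at arbitrary height (open where a channel was saturated). On label1 the 5 filled symbols lie near 0 and the 4 open ones were saturated in both channels, so that their place carries no measurement; on label2 LHCBM9 lies in the upper tail and LHCA1 and PSAO in the lower.

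Other antenna and photosystem genes were set beside the 3 genes. The list holds 18 models whose names begin with *LHCA*, *LHCB*, *PSA* or *PSB*, with 54 probes, of which 49 were tested. It was drawn from the models that the study's supplement names under nitrogen or sulfur starvation. It is thus selected by the study's own starvation results and need not hold every such gene on the array. In starved cc3491 0 passed Holm with 2-fold (0 in each direction), and with Benjamini-Hochberg 5 of the 49 passed with a higher and 0 with a lower signal in starved RNA, against 858 and 781 of all probes tested (4.70% higher). The median log2 ratio of the 49 probes was 0.36, against -0.02 over all probes tested, and 16 of the 54 probes were saturated on at least 1 of arrays 3 to 6. These 5 probes were the 3 of *LHCBM7* (model 184071; means of 1.20, 1.5 and 1.41), another LHCII gene, and probes 1 and 3 of model 184397 (1.10 and 1.04), which the tables name both *LHCB5* and *LHCBM3*. All but *LHCBM7* probe 2 were saturated on at least 1 of arrays 3 to 6. For *LHCBM7* probe 2 the values were 1.99, 1.63, 1.44 and 0.94 on arrays 3 to 6. *LHCBM4*, chosen after its values were seen because it lies near *LHCBM9*, had means of -0.58, -0.55 and -0.60 and was not called.

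On label2 most of the list lay on the side of *LHCA1* and *PSAO*. Of its 54 probes 44 were at least 2-fold dimmer in Cy5 and 0 were brighter, with a median log2 ratio of -3.60 against 0.06 over all probes. The highest value of the list was 0.85, below the lowest of *LHCBM9*, 3.27. Among the 21 antenna and photosystem models looked at here, *LHCBM9* was thus the one whose probes were brighter in Cy5 by at least 2-fold. The value of 0.85 belonged to probe 2 of model 196341, named *PSBX* in the tables. All 3 probes of this model were too dim to be tested, with mean log2 ratios of 0.96, 1.92 and 1.77 on arrays 3 to 6. *LHCBM4* had -1.93, -1.30 and -1.88. *LHCBM7*, past Benjamini-Hochberg in starved cc3491, had -1.24, -1.96 and -3.96 on label2. On label1 0 of 47 measured probes of the list passed 2-fold in either direction. Whether probes of 1 *LHCBM* gene bind transcripts of another was not tested.

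**Figure D4:**
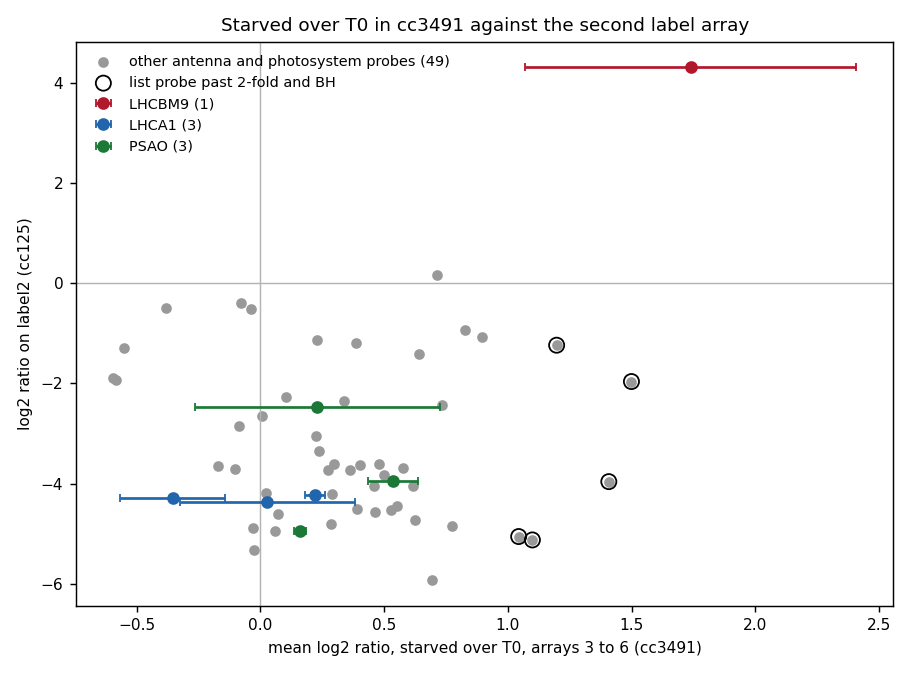
Mean log2 ratio of starved over T0 RNA on the cc3491 arrays 3 to 6 (x axis) against the log2 ratio on label2 (y axis) for the 7 tested member probes (coloured, bars are the SD of 4 arrays) and 49 tested probes of other antenna and photosystem genes (grey, ringed where past 2-fold and Benjamini-Hochberg). Among these tested probes LHCBM9 probe 1 lies alone at the upper right, and LHCA1 and PSAO lie among the other probes at the lower part. Probes too dim to be tested are not shown.

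The models most similar to each gene were sought over 6 arrays (3 to 6, label1 and label2) by the root mean square difference of the log2 ratio from probe 1, among 5758 probes numbered 1 that were measured on all 6. For *LHCBM9* they were *SLT1* (0.44), a sodium/sulfate transporter, *UOX* (0.57), a urate oxidase, and *HSP22A* (0.60), a small heat shock protein. Their mean log2 ratios on arrays 3 to 6 were 1.95, 1.71 and 2.03, and on label2 they had 3.96, 3.76 and 4.0. Probe 1 of *LHCBM9* was itself not well above background on array 6 and was saturated on label2. Its likeness to these models thus rests partly on values near background and is a description too. For *LHCA1* the nearest models were 33411, 76146 and 153656 (0.19 to 0.29), and for *PSAO* they were 130316, 206195 and 153715 (0.21 to 0.30), none of which is named in the tables used here. These 6 models lay between -2.17 and -4.44 on label2 and between -0.05 and 0.43 on arrays 3 to 6. Probe 1 of *LHCA1* was saturated on 4 of the 6 arrays and that of *PSAO* on 5, the 3 models nearest to *LHCA1* were saturated on 4 each, and the 2 nearest to *PSAO* on 6 each. The likeness thus compares values at the scanner ceiling, also on label1, where no ratio of these 2 probes is read, and it is given as a description only.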

How the data were processed

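RNA of *C. reinhardtii* was hybridised to 8 Agilent arrays with 2 colours. The authors deposited the output of Feature Extraction 10.7.3.1, which holds the processed intensity (background-subtracted and dye-normalised) and the uncorrected median intensity of each spot in both channels, marks per spot, and a value table with the log10 ratio of Cy5 over Cy3. Processed intensities were turned to log2 ratios and normalised by loess in limma 3.58.1 (R 4.3.3). On label1 and label2 they were used without loess. Control spots and marked uneven or outlier spots were left out and saturated spots kept. The test took in every probe that 3 or more of arrays 3 to 6 showed well above background in Cy3, Cy5 or both. A call was an adjusted p under 0.05 (Holm over all probes tested) and at least a 2-fold change, after the methods of the study. The median stood in for the mean spot intensity in the normexp setting (offset 50). On simulated data with 18236 probes 68 of 200 probes changed by 2 log2 units were called, with 0 false calls. The simulated noise was drawn independently for each array from the SD of each probe. It thus held no shared slide and no technical repeat, and gives no rate of false calls for the measured arrays.

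Named are the member probes, antenna and photosystem models that were called or share a member's name, and the 3 nearest models per gene. *LHCBM4* and model 196341 were named after their values were seen. The genes, lists and tests were chosen with earlier results of these data known. Names come from the tables of the study. Of 14557 models 12302 matched the NCBI v5.5 annotation, used for loci and gene order only. The number of arrays limits the precision. Alternatives are given in the closing section. Plots were made in matplotlib 3.10.9 (Python 3.11). The sequences of the probes were not used here.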

Additional observations from a re-analysis of the deposited data

Results flagged for a closer look

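*LHCA1* probe 1 stood apart on array 1, with a log2 ratio of -0.32 against 0.07 to 0.25 on the other 5 arrays. The gap to the nearest array was 0.675 of the whole range, and the probe was not well above background on arrays 1 and 2. Of the 9 probes 1 was marked in this way among 6 arrays and 0 among arrays 3 to 6, and about 5% of groups are marked by chance.

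*LHCA1* probe 3 and *PSAO* probe 1 had both arrays of the first slide below 0 and both arrays of the second above 0, with differences of 0.60 and 0.85 on the log2 scale. The limma test of the difference did not pass after adjustment, with an adjusted p of 1 by Holm for both. Cy5 was saturated for both probes on the first slide, where the labelled times are 72 and 96 h, and not on the second. Slide, labelled time and saturation cannot be told apart here.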

How the results depend on the processing

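No paired analysis was possible because each cc3491 ratio already pairs starved with T0 RNA on 1 array, and the cc125 arrays, which share replicate numbers 1 and 2, entered no test.

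Of the tested *LHCA1* and *PSAO* probes none was called in any setting. *LHCBM9* probe 1 (mean 1.74) was called with Benjamini-Hochberg alone. The sign of the mean turned for *LHCA1* probe 3 with median centring (-0.10), without array 5 (-0.078) and without array 6 (-0.066), and for *PSAO* probe 3 with normexp (-0.033) and without background correction (-0.070). *LHCBM9* probe 2 moved from 1.12 to 0.12 with normexp and to 0.091 without background correction. Leaving out 1 of arrays 3 to 6 gave means of 1.41 to 1.91, 0.77 to 1.38 and 0.56 to 1.54 for *LHCBM9* probes 1 to 3, of 0.21 to 0.24, -0.46 to -0.29 and -0.078 to 0.16 for *LHCA1*, and of 0.09 to 0.39, 0.49 to 0.58 and 0.15 to 0.17 for *PSAO*. Subtracting label1 as a dye effect gave 0.99, -0.22 and 0.62 for *LHCA1* probes 1 to 3 and 0.81, 0.96 and 0.35 for *PSAO*, so that unsaturated probes moved as well as those saturated on label1. The cause of these shifts was not tested. The slide difference changed sign with normexp for *LHCBM9* probe 1 (-0.24) and without loess for *PSAO* probe 3 (0.00037).

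The number of calls over all probes, 212, was 6 over all 6 arrays, 8 to 16 when 1 array was left out, 136 with normexp, 138 with median centring, 58 without the filter on dim probes (43705 tested), 544 over the 11493 probes above background in both channels, 1639 with Benjamini-Hochberg and 107 with slide as a random block. In the other 6 settings it stayed within 1.5 times. Signal limits these results at both ends: *LHCBM9* was near background on arrays 3 to 6, and 4 of the 9 probes were saturated there.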
